A study of Mus musculus with 8 samples.

Results

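The PPAR, ERR and PGC-1 metabolic regulators are a small circuit of transcription factors and coregulators that sets the capacity of the heart to burn fatty acids and to make mitochondria. The 10 genes described here were chosen by name from the 55679 genes of the deposited expression table: the receptors Ppara, Ppard, Pparg, Esrra, Esrrb and Esrrg, the shared receptor partner Rxra, the coactivators Ppargc1a and Ppargc1b, and the corepressor Nrip1. All 10 were found, and all passed the filter on low values. The study looked for immune-related genes of hypertensive left ventricular hypertrophy, and for this it compared left ventricles of mice given the pressor peptide angiotensin II (ANG II) with control left ventricles. The metabolic regulators were not its subject. Left ventricles came from male wild-type C57BL/6J mice that carried a subcutaneous osmotic mini-pump for 7 days, which delivered saline in the control group (4 libraries) or ANG II at 1500 ng/kg/min in the ANG II group (4 libraries). Hearts were flushed with saline in both groups, no allele differed between them, and the age of the mice was not given in the labels. The labels number the samples of each group without saying how they map to animals, so p-values measure the spread between these samples.

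Peroxisome proliferator-activated receptors (PPARs) are nuclear receptors that sense fatty acids and their derivatives, and they bind DNA as a pair with a retinoid X receptor such as the product of Rxra. Estrogen-related receptors (ERRs) are orphan receptors that need no hormone and act through their coactivators. PGC-1alpha (Ppargc1a) and PGC-1beta (Ppargc1b) bind both receptor families and raise the transcription of fatty acid oxidation and respiratory chain genes, whereas RIP140 (Nrip1) is recruited to the same receptors and represses such genes.

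Ppargc1a showed the largest change of the 10 regulators, and the start of its gene is shown for that reason. RefSeq places the transcription start on the minus strand of chromosome 5, and the 250 bases before it, read 5′ to 3′ on the strand of the gene, are chr5:51567726-51567975 of GRCm38.p6. The capitals mark CGTCA, which is the cyclic AMP response half-site TGACG on the other strand, with its first base at -49 from the start.
Ppargc1a: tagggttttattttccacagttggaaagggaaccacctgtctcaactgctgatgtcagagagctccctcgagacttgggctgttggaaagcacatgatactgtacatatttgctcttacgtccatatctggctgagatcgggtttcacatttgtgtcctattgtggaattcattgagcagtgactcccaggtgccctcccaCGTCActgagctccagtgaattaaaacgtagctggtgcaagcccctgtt
With both strands searched, TGACG was found in the RefSeq promoter windows (250 bases before to 50 after the start) of 4 of the 9 regulators with such a window (Ppara, Ppard, Esrrb and Ppargc1a), and in 23.0% of all 27025 genes with one. The full palindrome TGACGTCA, which contains the half-site, was in 0 of these 9 windows and in 2.03% of all genes.

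The extended half-site of the ERRs, AAGGTCA, was in the window of 1 of the 9 regulators, Rxra, against 5.38% of all genes. It was also in the windows of Rxrg, the retinoid X receptor of muscle, and Perm1, a striated muscle regulator named for its induction by PGC-1 and ERR, both of which are described with the partners. The stretches around the half-site are shown on the strand of each gene, with the half-site in capitals: chr2:27709231-27709261 for Rxra, chr1:167618164-167618194 for Rxrg, and chr4:156215713-156215743 for Perm1, where it reads TGACCTT because it lies on the other strand.
Rxra: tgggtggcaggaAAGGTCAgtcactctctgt
Rxrg: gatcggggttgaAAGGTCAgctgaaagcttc
Perm1: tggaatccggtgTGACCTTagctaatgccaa
The PPAR element, a direct repeat of AGGTCA with 1 base of any kind between the copies, was in 0 of the 9 windows and in 0.0481% of all genes. These are matches of letters in short windows. They are not measured binding sites.

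The values were FPKM, fragment counts set relative to transcript length and to the depth of the library, from 14455689 to 16564870 fragments per library. Testing was limited to the 19364 genes whose mean reached 0.1 FPKM. The call of a gene needed an adjusted p under 0.05 and a log2 fold change, ANG II minus control on log2(FPKM + 1), beyond 0.5 in either direction. All log2 fold changes here are on that scale, which understates the change of genes with low values. On the deposited scale the median gene was 0.15 higher in ANG II, 2708 genes were called higher and 273 lower. With median-of-ratios scaling the split was 1670 higher and 804 lower. Mitochondrially encoded genes took 28.9% to 30.2% of all FPKM in the control group and 22.1% to 24.6% in the ANG II group. Control 2 and ANG II 4 stood apart from the other libraries of their groups on the second principal component.

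Of the 10 regulators, 1 was called lower in ANG II (Ppargc1a) and 0 were called higher, whereas 15.4% of all genes tested were called, 1.41% lower and 14.0% higher. By the adjusted p alone, Ppargc1a and Esrrg fell (2 of 10), against 4.91% of all genes (33.3% in either direction). This count moved with the scaling: 4 fell with median-of-ratios scaling and without the mitochondrially encoded and top 10 genes, 5 fell with quantile normalization, and 4 rose and 1 fell with scaling to cardiomyocyte markers, where 13.1%, 8.93%, 15.3% and 1.89% of all genes fell. With scaling to cardiomyocyte markers, 9421 of all 19364 genes rose. The same 2 regulators had groups that did not overlap, which was so for 33.7% of all genes, 5.06% in the lower and 28.7% in the higher direction. The unadjusted p was under 0.05 for 4 of the 10 (Ppargc1a, Esrrg, Pparg and Nrip1), against 43.0% of all genes. The median log2 fold change of the 10 was -0.038 on the deposited scale (from -0.27 to 0.18 over the other scalings), and 8 of the 10 lay below the median of all genes.

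**Figure D1:**
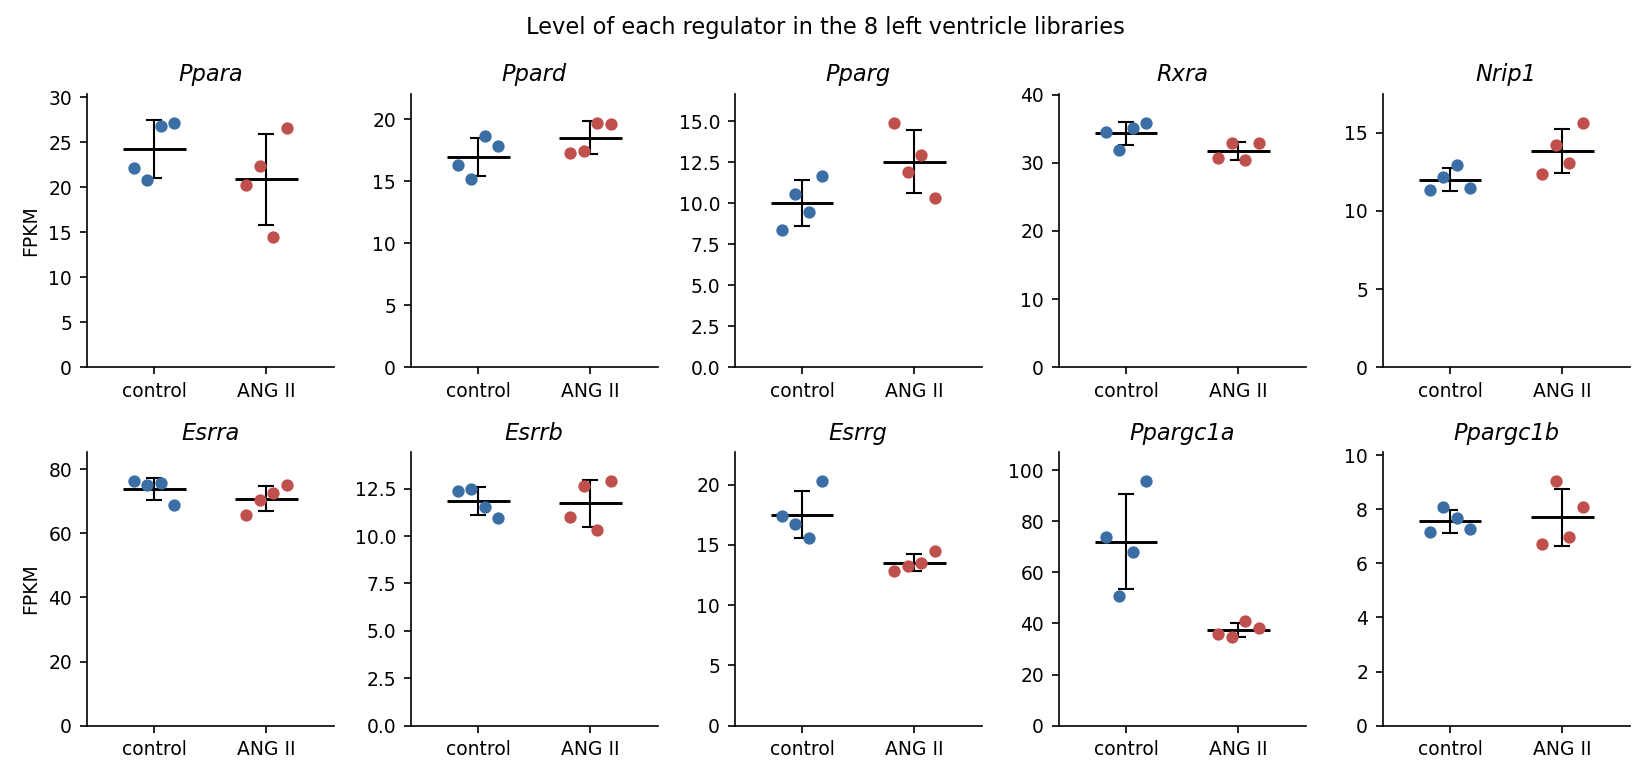
FPKM of each regulator (vertical axis, from 0) in the 4 control libraries (blue) and the 4 ANG II libraries (red), with bars for the group mean ± SD. The control libraries of Ppargc1a spread from 50.9 to 95.7 and all lie above the ANG II libraries, which reach 40.9. Esrrg is the only other regulator whose groups are apart.

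Among the coactivators, Ppargc1a fell to 51.8% of its control level while Ppargc1b showed no detectable change. Ppargc1a (ENSMUSG00000029167, chr5:51454250-51567726, minus strand) encodes PGC-1alpha, which is induced by exercise, fasting and cold and is regarded as a main driver of mitochondrial biogenesis. It stood at 73.8, 50.9, 68.0 and 95.7 FPKM in control 1 to 4 and at 35.7, 34.6, 40.9 and 38.2 FPKM in ANG II 1 to 4. Every ANG II library was below every control library, and the control libraries were far more spread than the ANG II libraries. The means were 72.1 ± 18.5 and 37.3 ± 2.79 FPKM (SD, n = 4 each), and the log2 fold change was -0.90 ± 0.156 (SE; 95% interval -1.25 to -0.55; limma, Benjamini-Hochberg adjusted p = 0.0018). An exact two-sided permutation test of the 4 against 4 libraries gave p = 0.0286, the smallest that 70 allocations allow. Counted from the lowest, its log2 fold change ranked 54 of 19364 genes. The values rested on 1645 to 4448 fragments per library, so counting error was small beside the spread between libraries.

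Leaving out 1 library at a time moved the log2 fold change of Ppargc1a between -0.75 (without control 4, its highest library) and -1.05 (without control 2, its lowest control library), and it was called each time. It was also called under every other scaling of the libraries. Its paralog Ppargc1b (ENSMUSG00000033871, chr18:61298136-61400431, minus strand) encodes PGC-1beta, which shares many of the same receptor partners. Ppargc1b stood at 7.17, 8.08, 7.66 and 7.28 FPKM in control 1 to 4 and at 6.73, 9.03, 6.96 and 8.07 FPKM in ANG II 1 to 4. The groups overlapped fully, with ANG II libraries both below and above all control libraries. The log2 fold change was 0.019 ± 0.0971 (SE; 95% interval -0.20 to 0.24; limma, adjusted p = 0.905), and its sign turned under 3 of the 4 other scalings. A change smaller than that interval was not detectable with these libraries.

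In the ERR family, Esrrg fell, and Esrra and Esrrb did not pass the test. Esrrg (ENSMUSG00000026610, chr1:187608791-188214885, plus strand) encodes ERRgamma, a receptor enriched in oxidative tissues such as heart. It stood at 17.4, 16.8, 15.6 and 20.3 FPKM in control 1 to 4 and at 12.8, 13.2, 13.5 and 14.5 FPKM in ANG II 1 to 4. All control libraries were above all ANG II libraries, although control 3 and ANG II 4 were close. The mean went from 17.5 ± 1.99 to 13.5 ± 0.708 FPKM (SD, n = 4 each), or 77.2% of control, and the log2 fold change was -0.35 ± 0.0825 (SE; 95% interval -0.53 to -0.16; limma, adjusted p = 0.00955; exact two-sided permutation p = 0.0286). The size was under the fold change threshold, so Esrrg was not called on the deposited scale. It was called with median-of-ratios scaling (-0.56) and with quantile normalization (-0.59), and with the libraries scaled to cardiomyocyte marker genes it was at -0.13 (limma, adjusted p = 0.24).

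Esrra (ENSMUSG00000024955, chr19:6910977-6921813, minus strand) encodes ERRalpha, the receptor through which PGC-1alpha raises many respiratory chain genes and whose own gene is a known ERRalpha target. It stood at 76.2, 74.99, 75.6 and 68.7 FPKM in control 1 to 4 and at 65.7, 70.3, 72.4 and 74.95 FPKM in ANG II 1 to 4. The groups overlapped, and control 4, which had the highest Ppargc1a, had the lowest Esrra of the control libraries. The means were 73.9 ± 3.46 and 70.8 ± 3.94 FPKM (SD, n = 4 each), and the log2 fold change was -0.061 ± 0.056 (SE; 95% interval -0.19 to 0.065; limma, adjusted p = 0.443). The direction of Esrra depended on the scaling: it was -0.29 with median-of-ratios scaling (adjusted p = 0.0037) and 0.16 with scaling to cardiomyocyte markers (adjusted p = 0.049), both by limma and both under the fold change threshold. About 2.07% of its exon length lies under another gene on the same strand and 1.66% under one on the other strand. Whether counting used strand was not given in the sources used here.

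Esrrb (ENSMUSG00000021255, chr12:86361117-86521628, plus strand) encodes ERRbeta, better known from stem cells and the inner ear. It ranged from 10.96 to 12.5 FPKM in control and from 10.3 to 12.9 FPKM in ANG II, so the control range lay inside the ANG II range. The log2 fold change was -0.016 ± 0.085 (SE; 95% interval -0.21 to 0.17; limma, adjusted p = 0.905), with a sign that changed with single libraries left out. It stood at -0.27 with quantile normalization (limma, adjusted p = 0.035) and at -0.23 with median-of-ratios scaling (limma, adjusted p = 0.062).

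None of the 3 PPAR receptors passed the test on the deposited scale. Ppara (ENSMUSG00000022383, chr15:85734983-85802819, plus strand) encodes PPARalpha, the main fatty acid sensor of cardiomyocytes and liver. It stood at 22.1, 20.8, 26.8 and 27.2 FPKM in control 1 to 4 and at 20.2, 22.3, 14.4 and 26.6 FPKM in ANG II 1 to 4. ANG II 3 was well below every other library and ANG II 4 was among the highest, so the groups overlapped. The means were 24.2 ± 3.23 and 20.9 ± 5.05 FPKM (SD, n = 4 each), and the log2 fold change was -0.23 ± 0.163 (SE; 95% interval -0.59 to 0.14; limma, adjusted p = 0.324). This was the least precise estimate among the 10, and its interval takes in values past the fold change threshold. It ranged from -0.069 (without ANG II 3) to -0.35 (without ANG II 4) with 1 library left out, and was -0.45 with median-of-ratios scaling and -0.011 with scaling to cardiomyocyte markers, passing the test in none of these.

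Ppard (ENSMUSG00000002250, chr17:28232700-28301474, plus strand) encodes PPARdelta, which is expressed in most tissues and also drives fatty acid oxidation in muscle. It ranged from 15.2 to 18.6 FPKM in control and from 17.3 to 19.7 FPKM in ANG II, with a log2 fold change of 0.12 ± 0.0792 (SE; 95% interval -0.058 to 0.30; limma, adjusted p = 0.283). The sign of Ppard turned with median-of-ratios scaling (-0.098). Pparg (ENSMUSG00000000440, chr6:115360951-115490399, plus strand) encodes PPARgamma, the adipocyte receptor, which is also made by macrophages and endothelial cells. It stood at 8.35, 10.6, 9.46 and 11.6 FPKM in control 1 to 4 and at 14.9, 11.9, 13.0 and 10.3 FPKM in ANG II 1 to 4. ANG II 1, 2 and 3 were above all control libraries and ANG II 4 was within the control range. The ANG II mean was 125% of the control mean, and the log2 fold change was 0.30 ± 0.122 (SE; 95% interval 0.023 to 0.57; limma, adjusted p = 0.0907). With 1 library left out the log2 fold change of Pparg ranged from 0.22 (without ANG II 1; limma, adjusted p = 0.223) to 0.38 (without ANG II 4; adjusted p = 0.042). It was 0.087 with median-of-ratios scaling (adjusted p = 0.671) and 0.046 with quantile normalization (adjusted p = 0.827).

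Rxra, the partner, and Nrip1, the corepressor, lay on either side of zero without passing the test. Rxra (ENSMUSG00000015846, chr2:27676440-27762957, plus strand), whose product pairs with all 3 PPARs, stood at 34.5, 31.8, 35.1 and 35.9 FPKM in control 1 to 4 and at 30.8, 32.9, 30.5 and 32.9 FPKM in ANG II 1 to 4. Control 2 was below the upper ANG II libraries, which made the groups overlap, and the other control libraries were above all ANG II libraries. The log2 fold change was -0.11 ± 0.0559 (SE; 95% interval -0.23 to 0.017; limma, adjusted p = 0.17), and it was -0.33 with median-of-ratios scaling (adjusted p = 0.0034) and 0.11 with scaling to cardiomyocyte markers. Nrip1 (ENSMUSG00000048490, chr16:76287400-76373827, minus strand) stood at 11.4, 12.2, 12.9 and 11.5 FPKM in control 1 to 4 and at 12.4, 14.2, 13.1 and 15.6 FPKM in ANG II 1 to 4. Only ANG II 1 fell within the control range. The means of Nrip1 were 11.99 ± 0.729 and 13.8 ± 1.43 FPKM (SD, n = 4 each). Its log2 fold change was 0.19 ± 0.0821 (SE; 95% interval 0.0036 to 0.37; limma, adjusted p = 0.11), and the sign turned with median-of-ratios scaling (-0.026).

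**Figure D2:**
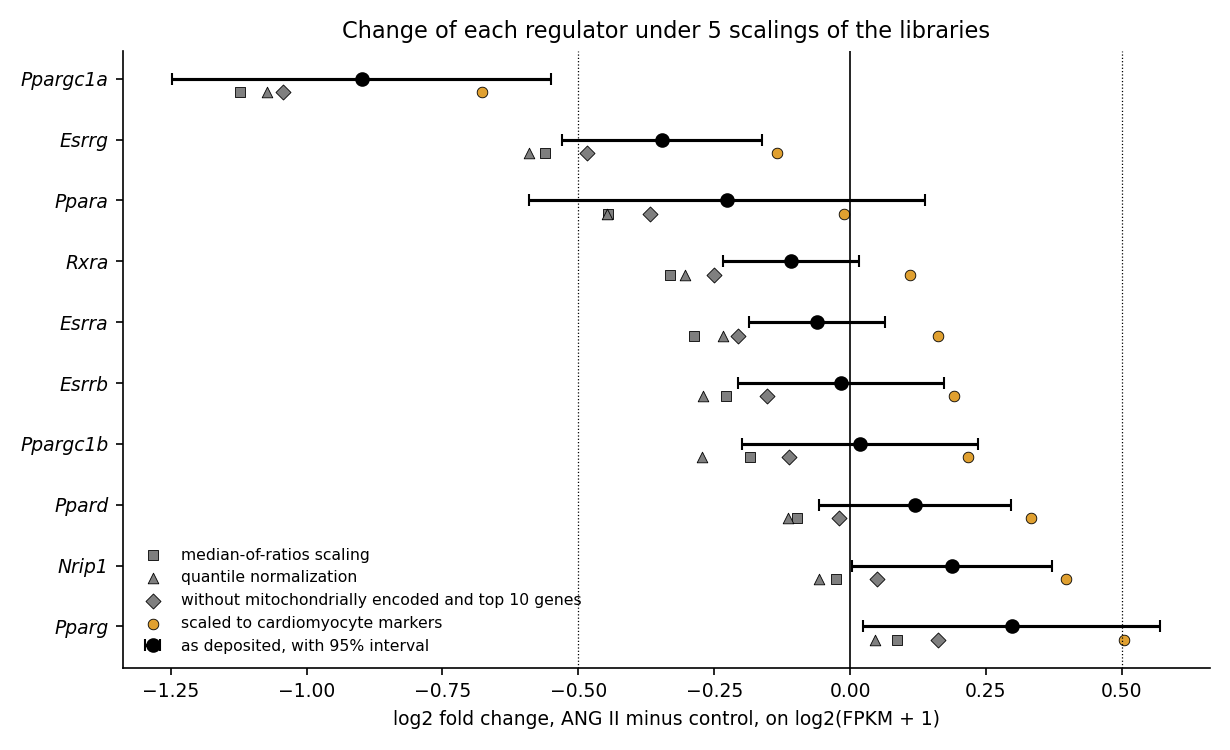
Log2 fold change of each regulator, ANG II minus control on log2(FPKM + 1) (horizontal axis), on the deposited scale (black, with 95% interval) and under 4 other scalings of the libraries (grey and orange); dotted lines stand at -0.5 and 0.5. Ppargc1a is beyond -0.5 under all 5, while Esrra, Esrrb, Rxra, Ppargc1b, Ppard and Nrip1 have values on both sides of 0.

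Cell type markers moved between the groups too. The summed FPKM of 14 cardiomyocyte markers ranged from 63067.5 to 64169.2 in control and from 49819.6 to 52395.8 in ANG II, and 6 of the 14 fell by adjusted p (4.91% of all genes), among them Myh6, the adult myosin heavy chain (-0.55), which stayed above 6618 FPKM in all libraries. The list did not move as one, since 4 of the 14 had a log2 fold change above 0, among them the sarcomere proteins Mybpc3 (0.20) and Tnnc1 (0.13). The summed fibroblast markers ranged from 1200 to 1671 FPKM in control and from 4058 to 4556 FPKM in ANG II, with 9 of 10 called higher (14.0% of all genes), while the other, Gsn, fell by the adjusted p (-0.50; limma, adjusted p = 0.028). The summed macrophage markers ranged from 305 to 382 FPKM in control and from 679 to 947 FPKM in ANG II, with 9 of 10 called higher. In a bulk sample, fewer cells of a type and less RNA per cell cannot be told apart. Scaled to the cardiomyocyte markers, Ppargc1a was still called lower (-0.68; limma, adjusted p = 0.0062) whereas Pparg (0.50; adjusted p = 0.0092) was called higher and Nrip1 (0.40; adjusted p = 0.002) and Ppard (0.33; adjusted p = 0.0087) passed the adjusted p (limma), with the median of all genes at 0.29 on that scale. For Pparg, the adipocyte list was uneven. Adipoq, the adipocyte hormone adiponectin, did not exceed 1.44 FPKM and Plin1, the adipocyte lipid droplet coat, 0.687 FPKM in any library, and Lep and Ucp1 were below the filter. Cfd reached 9.95 FPKM and Car3 7.21 FPKM, and Fabp4, a fatty acid binding protein also made by endothelial cells and macrophages, rose from between 142 and 192 FPKM to between 194 and 246 FPKM without overlap (limma, adjusted p = 0.0136). The summed adipocyte list ranged from 475 to 556 FPKM in control and from 435 to 514 FPKM in ANG II, with Cidea called higher and Dgat2 called lower; these genes of the list were named after their values were seen. The summed endothelial markers ranged from 452 to 508 FPKM in control and from 517 to 597 FPKM in ANG II, with 3 of 10 higher by the adjusted p (28.4% of all genes) and 2 called higher (14.0% of all genes). The part of the macrophage, fibroblast, endothelial and adipocyte genes in the Pparg values was not tested.

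Levels per length ran from Esrra at the top to Ppargc1b at the bottom in the control group. Esrra (73.9 ± 3.46 FPKM) and Ppargc1a (72.1 ± 18.5 FPKM) led and overlapped. Rxra, Ppara and Esrrg followed in that order with no overlap between neighbours, and Ppard (17.0 ± 1.54 FPKM) overlapped Esrrg. Nrip1, Esrrb (11.8 ± 0.734 FPKM) and Pparg overlapped one another in turn, and Ppargc1b (7.55 ± 0.41 FPKM) was below all of them (SD, n = 4 throughout). In ANG II, Esrra (70.8 FPKM) was apart from Ppargc1a (37.3 FPKM), and Esrrg (13.5 FPKM) was below Ppard without overlap and overlapped Nrip1. The length behind these FPKM values was the mean over annotated transcripts. With the longest transcript in its place, the order of the first 3 was kept, and Nrip1, whose longest transcript has 7868 bases, became the lowest at 3.93.

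Ratios between regulators within a library do not change when all values of the library are multiplied by 1 factor. Ppargc1a to Ppargc1b was 10.3, 6.30, 8.88 and 13.1 in control 1 to 4 and 5.31, 3.83, 5.87 and 4.73 in ANG II 1 to 4. Every ANG II ratio was below every control ratio. Ppargc1a to Esrra went from 0.985 ± 0.298 (0.679 to 1.39) in the control group to 0.528 ± 0.0324 (0.493 to 0.564) in the ANG II group. Esrra to Esrrg went from 4.27 ± 0.621 (3.39 to 4.84) to 5.24 ± 0.111 (5.12 to 5.35), a shift of the ERR balance toward Esrra. Ppara to Ppard went from 1.42 ± 0.0762 (1.36 to 1.53) to 1.14 ± 0.278 (0.734 to 1.35), and in ANG II 3 alone Ppara was below Ppard. All 4 ratios had groups that did not overlap (SD, n = 4 each), and they are given as a description without a test. Among single genes 33.7% had groups that did not overlap, and the share over other pairs of genes was not computed. Except for Ppara to Ppard, each pair holds Ppargc1a or Esrrg, whose own groups did not overlap. Ppargc1a to Esrra was added to the planned ratios of paralogs. Summed by family, the 3 PPARs stood at 51.2 ± 5.30 FPKM in the control group and at 51.9 ± 3.88 FPKM in the ANG II group, the 3 ERRs at 103 ± 2.55 and 96.1 ± 5.24 FPKM, and both PGC-1 genes together at 79.6 ± 18.1 and 45.0 ± 2.45 FPKM.

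**Figure D3:**
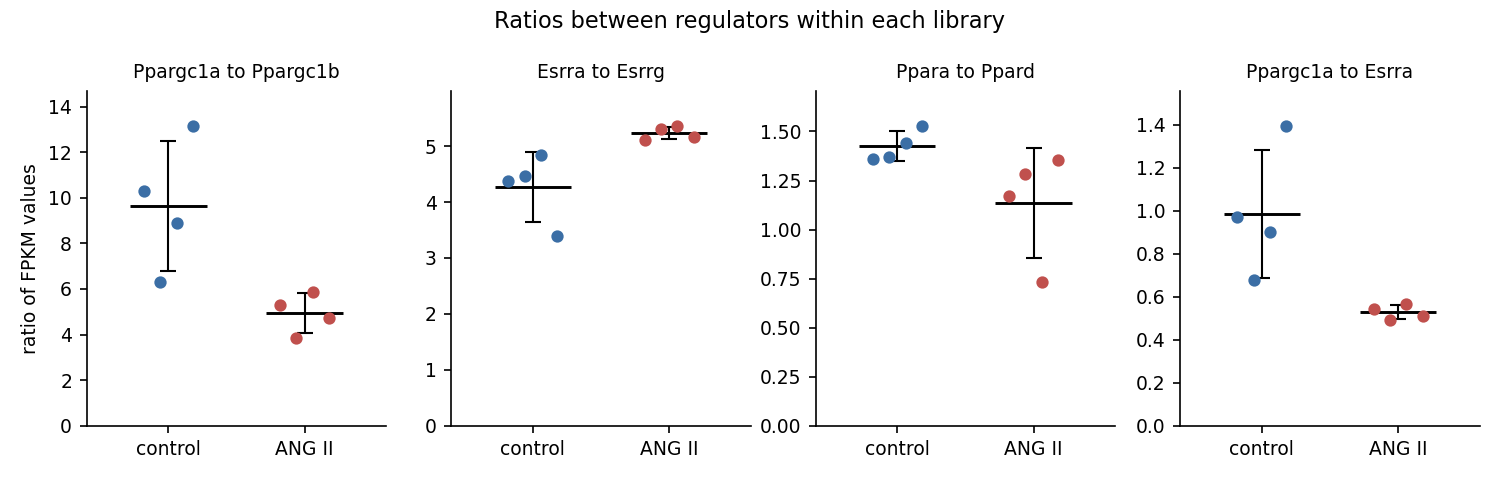
Ratio of FPKM values of 2 regulators within each library (vertical axis, from 0) for 4 pairs, in control (blue) and ANG II (red), with bars for the mean ± SD of 4 libraries. The groups do not overlap in any of the 4 pairs: Ppargc1a to Ppargc1b, Ppargc1a to Esrra and Ppara to Ppard are lower in ANG II, and Esrra to Esrrg is higher.

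Over the 8 libraries and 12946 other genes that averaged 1 FPKM or more, the genes whose log2 values followed Ppargc1a most closely were an unnamed assembled gene (Pearson r = 0.974), Pnpla8 (r = 0.972) and Arfgef1 (r = 0.965). For Ppara they included Ubr3 (r = 0.951) and another unnamed assembled gene (r = 0.944), and for Esrra they were Rnf167 (r = 0.938), Pick1 (r = 0.936) and Car8 (r = 0.932). These correlations are descriptions over libraries that share 2 groups and a common scaling, and the highest of so many genes is high by construction.

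Of 18 further partners and coregulators, 4 rose and 3 fell by the adjusted p and 0 passed the fold change threshold (limma; 8 had an unadjusted p under 0.05, and voom on recovered fragments called 0), with a median log2 fold change of 0.094 against 0.15 for all genes, of which 28.4% rose and 4.91% fell by the adjusted p. This split depended on the scaling: 0 rose and 4 fell with median-of-ratios scaling and with quantile normalization, and 14 rose and 1 fell with scaling to cardiomyocyte markers. The split of all genes moved with it: 2827 of 19364 rose and 13.1% fell with median-of-ratios scaling, 2428 rose and 15.3% fell with quantile normalization, and 9421 rose and 1.89% fell with scaling to cardiomyocyte markers. Those that fell act with the receptors described above. Lpin1, a lipid phosphatase that also coactivates PPARalpha with PGC-1alpha, fell by 0.46 on the log2 scale, from between 55.3 and 63.6 FPKM in control to between 39.7 and 46.3 FPKM in ANG II (adjusted p = 0.00057). Perm1 fell by 0.42 (75.4 to 109 FPKM in control and 63.2 to 83.5 FPKM in ANG II; adjusted p = 0.026), and its groups overlapped. Rxrg fell by 0.39 (26.6 to 33.0 FPKM and 21.4 to 24.8 FPKM; adjusted p = 0.0052). The promoter stretches of Rxrg and Perm1 are those shown above with the ERR half-site. Tbl1xr1, a subunit of nuclear receptor corepressor complexes, rose by 0.41 (adjusted p = 0.00083), and Pprc1, the PGC-1-related coactivator, rose by 0.34 (adjusted p = 0.0082). Ncor1, a nuclear receptor corepressor, stood at 0.038 (adjusted p = 0.717) on the deposited scale. The p-values of the partners are limma's, adjusted over all genes.

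Of 18 upstream regulators, 5 (against 28.4% of all genes) rose and 2 (against 4.91%) fell by the adjusted p, and 1 was called lower. With median-of-ratios scaling 0 rose and 10 fell, with quantile normalization 0 rose and 9 fell, and with scaling to cardiomyocyte markers 10 rose and 1 fell, where 13.1%, 15.3% and 1.89% of all genes fell. Of all 19364 genes, 2827, 2428 and 9421 rose on these scales, in the same order. The one called was Klf15, a factor of fasting and glucocorticoid metabolism in heart and muscle, which stood between 21.3 and 25.8 FPKM in control and between 13.0 and 18.5 FPKM in ANG II. The log2 fold change of Klf15 was -0.57 ± 0.113 (SE; limma, adjusted p = 0.0039), and it was under the threshold without ANG II 2 (-0.48) and with scaling to cardiomyocyte markers (-0.35). Prkab2, a subunit of the energy sensor AMPK, was higher by 0.34 (adjusted p = 0.009) and Mef2c, a muscle transcription factor, by 0.29 (adjusted p = 0.0088) on the deposited scale (limma), and neither passed with median-of-ratios scaling. Mef2a and Mef2d, which act on the Ppargc1a promoter in muscle, stood at -0.11 (adjusted p = 0.152) and -0.038 (adjusted p = 0.639) on the deposited scale (limma). Over the 19 alternatives Mef2a ranged from -0.34 to 0.11 (limma, lowest adjusted p = 0.00079) and Mef2d from -0.26 to 0.18 (limma, lowest adjusted p = 0.007). Each passed as lower under at least 1 of them.

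Target genes of the ERRs and PGC-1 moved mostly one way. Of the 33, 20 (60.6%) fell and 0 rose by the adjusted p, against 4.91% of all genes lower and 28.4% higher, and 0 passed the fold change threshold (limma; 25 had an unadjusted p under 0.05, and voom called 0). That 0 were called did not hold throughout: 1 was called lower without ANG II 3 and 1 without control 4, and 13 were called, all lower, with median-of-ratios scaling, 7 with quantile normalization and 8 without the mitochondrially encoded and top 10 genes. Of all genes, 804, 986 and 536 were called lower on these last 3 scales, against 273 on the deposited scale. The median log2 fold change was -0.25, and 32 of the 33 lay below the median of all genes. The members that fell included enzymes of the citric acid cycle: Idh3b, a subunit of isocitrate dehydrogenase (598 ± 15.8 to 425 ± 15.7 FPKM, log2 fold change -0.49), Sdha, a subunit of succinate dehydrogenase (2016 ± 19.6 to 1485 ± 76.3 FPKM, -0.44), and Cs, citrate synthase (424 ± 19.9 to 322 ± 28.5 FPKM, -0.40). They also included Ndufs1 of respiratory complex I (478 ± 8.92 to 356 ± 9.78 FPKM, -0.43), the mitochondrial superoxide dismutase Sod2 (337 ± 17.3 to 254 ± 17.9 FPKM, -0.41), and the ATP synthase subunits Atp5a1 (-0.35) and Atp5b (-0.22). Control and ANG II libraries did not overlap for any of these 7 genes (SD, n = 4 each), nor for 22 of the 33 in all, each lower in ANG II, against 5.06% of all genes. On the deposited scale, factors that link PGC-1 to mitochondrial DNA did not pass: Tfam, the mitochondrial transcription factor, was at -0.10 (limma, adjusted p = 0.115) and Nrf1, the nuclear respiratory factor, at 0.28 (limma, adjusted p = 0.108). The groups of Tfam still did not overlap (33.0 to 35.0 FPKM in control, 30.8 to 32.3 FPKM in ANG II). Over the 19 alternatives Tfam ranged from -0.33 to 0.12 (limma, lowest adjusted p = 0.0014) and Nrf1 from 0.012 to 0.48 (limma, lowest adjusted p = 0.012). Tfam thus passed as lower, and Nrf1 as higher, under at least 1 of them. Scaled to the cardiomyocyte markers, 6 of the 33 were lower and 2 higher by the adjusted p (1.89% of all genes lower and 9421 of 19364 higher), and the median was -0.042 where that of all genes was 0.29.

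In the promoter windows of these targets, 8 of 25 held the ETS motif CCGGAAG (9.93% of all genes) and 4 of 25 the NRF1 motif, GCGCA and then GCGC with 1 base of any kind between them (5.19% of all genes), while the ERR half-site AAGGTCA was in 1 of 25, Ogdh (5.38% of all genes). TGACG was in 13 of 25 (23.0% of all genes) and the palindrome TGACGTCA in 4 of 25 (2.03% of all genes).

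Targets of the PPARs moved in both directions on the deposited scale. Of 30, 27 passed the filter, 9 fell and 2 rose by the adjusted p (4.91% and 28.4% of all genes), and 1 was called lower, with a median of -0.20. No target rose with median-of-ratios scaling (15 fell, 9 called, where 13.1% of all genes fell), with quantile normalization (14 fell, 9 called, where 15.3% fell), without the mitochondrially encoded and top 10 genes, with a replicate block, without the variance trend, with no filter, or without ANG II 1, ANG II 3, ANG II 4, control 1 or control 3. The called gene was Acaa2, the thiolase of the last step of mitochondrial fatty acid oxidation, which fell from 705 ± 24.2 to 414 ± 24.5 FPKM (SD, n = 4 each; log2 fold change -0.77; limma, adjusted p = 1.4e-05). Other oxidation enzymes fell by less: the carnitine transferase Cpt2 (-0.48), the medium-chain dehydrogenase Acadm (-0.47), both subunits of the trifunctional protein, Hadha (-0.46) and Hadhb (-0.43), and Mlycd, which degrades malonyl-CoA (-0.34). The lipid droplet coats went apart, with Plin5 lower (-0.31) and Plin2 higher on the deposited scale (0.30; limma, adjusted p = 0.034). Cpt1a, the liver-type carnitine transferase, was higher by 0.42 on the deposited scale (29.6 to 44.8 FPKM in control and 44.4 to 57.6 FPKM in ANG II; limma, adjusted p = 0.033). The muscle-type Cpt1b was kept in the counts of tested targets, but its values could not be read as its own, because 81.4% of its exon length lies under another gene on the same strand. The most abundant targets, the fatty acid binding protein Fabp3 (0.19; adjusted p = 0.075) and the lipase Lpl (-0.10; adjusted p = 0.314), did not pass on the deposited scale (limma), and 19.6% of the Fabp3 exon length lies under a gene on the opposite strand.

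**Figure D4:**
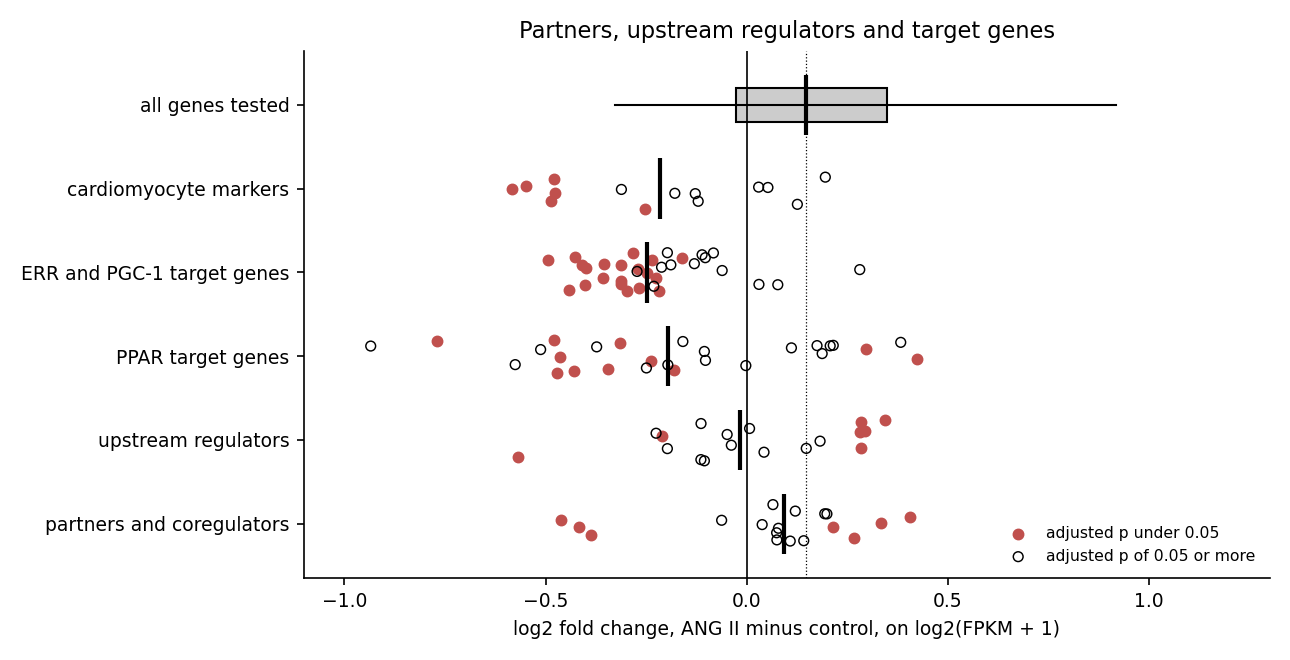
Log2 fold change, ANG II minus control on log2(FPKM + 1) (horizontal axis), of each tested gene in 5 lists, filled red where the adjusted p was under 0.05, with a thick bar at each list's median; for all genes tested the box spans the middle part of the distribution (quartiles) and its line the 5th to 95th percentiles, and the dotted line continues their median of 0.15. All 20 ERR and PGC-1 targets that pass the adjusted p lie below 0, and the median is -0.25 for these targets and -0.22 for the cardiomyocyte markers on the deposited scale (-0.37 and -0.046 with quantile normalization, not plotted).

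Several PPAR targets that respond most to fasting and fatty acids were dominated by 1 control library. Control 2 was the highest control library for 18 of the 27 tested PPAR targets (66.7%), against 8 of 33 ERR and PGC-1 targets (24.2%) and 30.1% of all genes. Angptl4, a secreted inhibitor of lipoprotein lipase, was at 40.3 FPKM in control 2 and between 6.57 and 6.995 FPKM in the other control libraries. Pdk4, the kinase that shuts off pyruvate oxidation, was at 1268 FPKM in control 2 and between 239 and 609 FPKM in the others. Ucp3, a mitochondrial carrier of muscle, was at 65.6 FPKM in control 2 and between 13.3 and 24.5 FPKM in the others. Among the regulators, control 2 had the lowest Ppargc1a (50.9 FPKM), Ppara (20.8 FPKM), Ppard (15.2 FPKM) and Rxra (31.8 FPKM) of the control group. It had the highest Ppargc1b (8.08 FPKM) and Esrrb (12.5 FPKM), and the other regulators were in between. With control 2 left out, Angptl4 was called higher in ANG II (0.99 ± 0.261, SE; limma, adjusted p = 0.02) where it had been at 0.38 (adjusted p = 0.617), Pdk4 went from -0.58 to -0.13, and Ucp3 from -0.93 to -0.48, neither past the test. Cpt1a was then called as well (0.52; limma, adjusted p = 0.011).

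**Figure D5:**
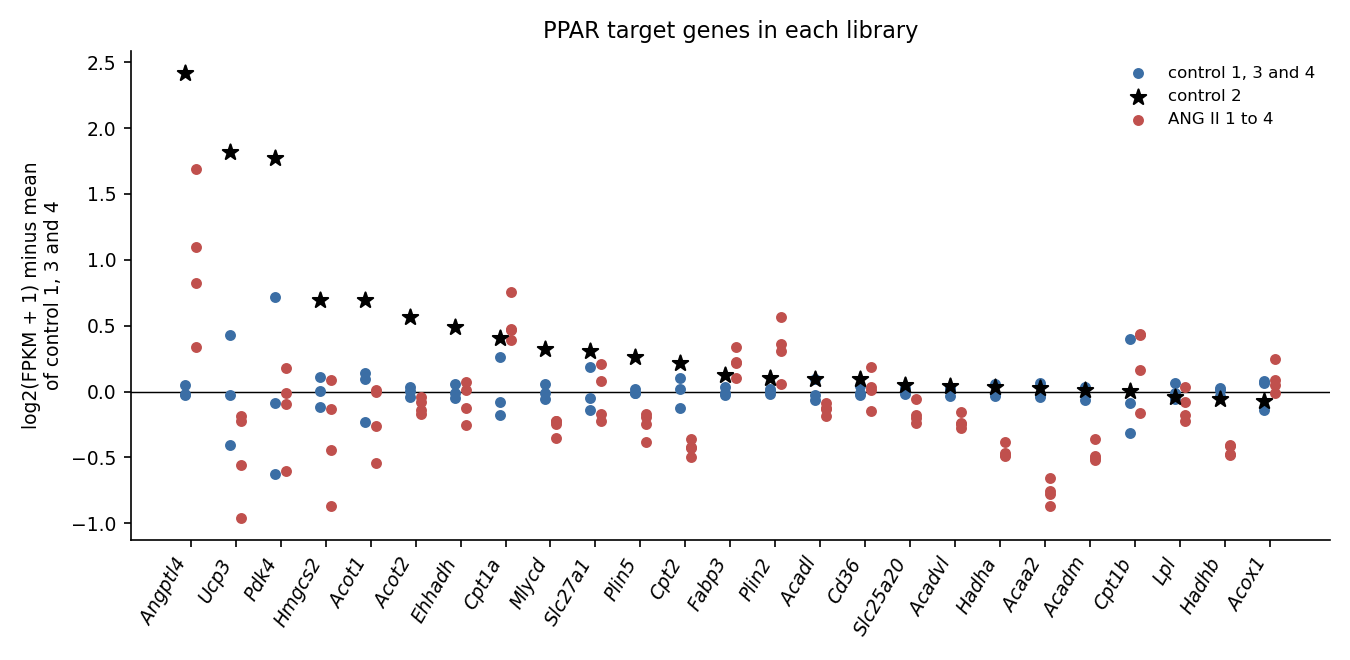
Log2(FPKM + 1) of PPAR targets in each library (vertical axis) relative to the mean of control 1, 3 and 4, with control 2 as a star, the other control libraries in blue and the ANG II libraries in red. Control 2 stands far above the other control libraries at Angptl4, Ucp3 and Pdk4 and is near them at Hadha, Acaa2, Acadm and Hadhb, where all 4 ANG II libraries are lower.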

How the data were processed

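RNA-seq was carried out on 8 left ventricle libraries (4 control, 4 ANG II), grouped by their treatment labels. The paper describes more samples in each group, and the others were not analysed here. Per the labels, mRNA was captured with oligo(dT) beads before library construction. The authors deposited FPKM values in 1 table, with 1 column per library, and 0 columns were left out. The submitters' processing notes name Bowtie2, HISAT and RSEM; the genome build, the annotation and the use of strand are not given in the sources used here. One protocol label describes the extraction for a different kind of cell, although the tissue label is left ventricle.

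The deposited FPKM values were used as they stood. Multiplied by the mean transcript length of GENCODE M21 (55141 of 55679 gene IDs were found), low values fell on whole fragments, which gave 14455689 to 16564870 fragments per library; at least 97.1% of values under 60 fragments were whole within 0.05. This precision covers counting error only. Of all genes, 27083 were at 0 in every library.

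Log2(FPKM + 1) was compared, for genes whose mean reached 0.1 FPKM, by limma 3.58.1 (variance trend) in R 4.3.3, two-sided, with Benjamini-Hochberg adjustment over 19364 genes and no covariate. Genes were called at an adjusted p under 0.05 and an absolute log2 fold change above 0.5, thresholds the study states without the base of the logarithm. Pseudocount and filter were choices of this work. For single regulators an exact permutation test (two-sided) over the 70 allocations of the libraries was added. The code was tested on simulated data. Python 3.11.15, numpy 2.4.6, pandas 2.3.3 and matplotlib 3.10.9 were used. Promoters came from RefSeq windows on GRCm38.p6; 9 of the 10 regulators had one, and Ppargc1b had none in the table used. For Rxra, Rxrg and Perm1 the RefSeq start lies inside the span of the GENCODE gene.

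The 10 regulators and the gene lists were chosen with earlier results of these data known. The text names the 10 regulators, up to 4 called genes in each direction and the 2 most abundant genes of each list of partners, upstream regulators and targets, and the 3 genes most like Ppara, Esrra and Ppargc1a. All other genes were named after their values were seen, among them Lpin1, Rxrg, Tbl1xr1, Pprc1, Prkab2, Mef2c, Angptl4, Pdk4, Ucp3, Cpt1a, Tfam and Nrf1. A gene picked by these rules may be left out of the text as not reported here, and counts keep it. Alternatives changed 1 choice at a time: pseudocount, filter, scaling, variance trend, replicate block, fold change threshold, and each library left out. A further alternative, limma voom on the recovered fragments, changed the unit, the weights and the genes tested together. The longest transcript as length was an alternative chosen after seeing the data.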

Additional observations from a re-analysis of the deposited data

Results flagged for a closer look

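In 7 of 106 groups of 4 libraries examined, for the regulators and the other named genes, the highest or lowest library was far from the nearest of the others; by chance about 1 in 20 groups would be picked out in this way. Of the regulators, only Esrra was among them, with control 4 at 68.7 FPKM and the nearest other control library at 74.99 FPKM. Control 2 was high at 3 PPAR targets: Angptl4 (40.3 FPKM, nearest 6.995), Acot2 (51.3 FPKM, nearest 35.1) and Plin5 (60.4 FPKM, nearest 50.96). ANG II 4 was high at Mef2a (81.0 FPKM, nearest 72.2) and at Pprc1 (16.0 FPKM, nearest 13.2). ANG II 3 was high at Acadm (1249.6 FPKM, nearest 1142). Leaving out ANG II 3 or ANG II 4 did not turn the direction of Acadm, Mef2a or Pprc1.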

How the results depend on the processing

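Ppargc1a was called lower under all 19 alternatives (-1.12 to -0.68). Leaving out each library gave 2763 to 3109 genes called, 1 regulator throughout, 0 to 1 partners, 0 to 1 upstream regulators (0 without ANG II 2), 1 to 3 PPAR targets (3 without ANG II 3, control 1 or control 2) and 0 to 1 ERR and PGC-1 targets. The numbers of genes called were 5006 with cardiomyocyte marker scaling and 6447 with no fold change threshold. Regulators called were 2 with median-of-ratios and quantile scaling and with no fold threshold (all lower), and 2 with cardiomyocyte scaling (1 higher, 1 lower). Partners called were 3 with median-of-ratios, quantile and common-total scaling (without mitochondrially encoded and top 10 genes), all lower, 2 with cardiomyocyte scaling, both higher, and 7 with no fold threshold (4 higher, 3 lower). Upstream regulators called were 2 with cardiomyocyte scaling, both higher where the deposited scale had 1 lower, and 7 with no fold threshold (5 higher, 2 lower). PPAR targets called were 9, 9, 5, 3 (2 of them higher) and 11 (2 higher) in the order of the settings for partners, and ERR and PGC-1 targets 13, 7 and 8 with the first 3 and 20 with no fold threshold. Directions turned as follows. With median-of-ratios scaling, Ppard was -0.098, Ppargc1b -0.18, Nrip1 -0.026, Ncor1 -0.19 and Fabp3 -0.042. With quantile normalization, Ppard was -0.11, Ppargc1b -0.27, Nrip1 -0.057, Ncor1 -0.13, Fabp3 -0.026 and Cpt1b, whose values could not be read as its own, -0.11. With common-total scaling, Ppard was -0.020, Ppargc1b -0.11 and Ncor1 -0.11. With cardiomyocyte scaling, Esrra was 0.16, Esrrb 0.19, Rxra 0.11, Mef2d 0.18, Mef2a 0.11, Lpl 0.12, Atp5b 0.0075 and Tfam 0.12. With single libraries left out, Esrrb ranged from -0.060 to 0.038 (above 0 without ANG II 1, ANG II 3, control 1 or control 2), Ppargc1b from -0.053 to 0.073 (below 0 without ANG II 2, ANG II 4 or control 1), and Ncor1 from -0.0061 (without control 2) to 0.081. The cause was not tested.

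Same-numbered libraries did not deviate together (r of -0.0433 to 0.0921), so the replicate numbers were not taken as pairs; with a replicate block, 2968 genes and 1 regulator were called, and Ppargc1a stood at -0.90 (limma, adjusted p = 0.0026). With the longest transcript as length, Ppargc1a to Ppargc1b was 6.77 in control and 3.46 in ANG II, Esrra to Esrrg 3.62 and 4.45, and Ppargc1a to Esrra 0.477 in ANG II. Leaving out single libraries, the mean ratios ranged in control and ANG II from 8.49 to 10.8 and 4.62 to 5.30 (Ppargc1a to Ppargc1b), 4.08 to 4.56 and 5.199 to 5.28 (Esrra to Esrrg), 1.39 to 1.45 and 1.06 to 1.27 (Ppara to Ppard), and 0.849 to 1.09 and 0.515 to 0.539 (Ppargc1a to Esrra). The spread of Ppara between libraries leaves its interval wide, and messenger RNA levels carry no information on the activity of the receptors.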
